A study of Drosophila melanogaster with 9 samples.

Results

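The mitochondrial ribosomal protein genes of *Drosophila* were taken from the table of gene counts as every entry whose name begins with mRpL or mRpS. This gave 73 of 14560 genes, 47 mRpL (named for the large subunit) and 26 mRpS (named for the small subunit). Their products are encoded in the nucleus, imported into mitochondria and built, together with ribosomal RNA from the mitochondrial genome, into the mitochondrial ribosome. This ribosome translates the few proteins that mitochondrial DNA encodes, which are subunits of the respiratory chain and of ATP synthase. The large subunit forms peptide bonds, and the small subunit binds the mRNA and reads its codons. Some of these proteins descend from bacterial ribosomal proteins, and others are found only in mitochondria. In fly neuroblasts, the stem cells of the larval brain, and in brain tumours lacking *brat*, oxidative metabolism is known to support growth. Numbers in the names follow the bacterial proteins or the order of discovery, so neighbouring numbers do not mean related proteins.

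RNA was sequenced from whole larval brains of the genotype *brat11/Df(2L)Exel8040*, carrying *2xTub-Gal80ts*, *Wor-Gal4* and *UAS-insb*. All 3 groups shared these alleles, so the 0 hr group is also *brat*-null and is not a wild-type control. Loss of *brat* fills the brain with extra type II neuroblasts, and Insensible (Insb) pushes these cells towards intermediate neural progenitors. The driver acts in neuroblasts and is described in the study's account of the strategy as limited to type II neuroblasts by *AseGal80*, while the rest of the brain was also in the RNA. The 0 hr larvae stayed at 25°C, whereas the other groups were moved to 33°C for 9 or 18 hr to switch on Insb. Time at 33°C and time of Insb overexpression were therefore the same interval and cannot be told apart. The larvae were cultured for 5 days. Each group held 3 biological replicates of 50 brains, and brains of the groups were taken on the same day.

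Each library held 26533845 to 37109356 counts, of which 89845 to 125327 fell on the 73 genes. The *insb* gene, listed as CG6520, rose by 3.48 ± 0.09 (log2 fold change ± SE) at 9 hr and by 3.30 ± 0.09 at 18 hr (edgeR quasi-likelihood test; p adjusted over all genes by Benjamini and Hochberg's method, 1.16e-05 and 1.15e-05). At 9 hr, replicates 2 and 3 were no further apart than counting noise for paired reads, with a median chi-square of 0.812 over 8163 genes of moderate depth, against 0.910 for noise and 2.03 to 6.26 for other replicate pairs. They were counted as 1 sample, which left n = 3, 2 and 3 for 0, 9 and 18 hr. Neuroblast markers summed to 2335 to 2483 CPM (counts scaled to a common library depth) at 0 hr, 1976 to 2019 at 9 hr and 1562 to 2225 at 18 hr, and neuron markers to 1123 to 1409 throughout, with all 6 and all 5 markers detected. The labels name the cells as neural stem cells, but neurons and glia were thus part of the RNA, the 5 glial markers summing to 391 to 507 CPM. Fat body markers, 5 genes that a brain should hardly express, ranged from 10.7 to 805 CPM, and replicate 1 at 18 hr had the highest sums of fat body, muscle and haemocyte markers. That library and replicate 1 at 9 hr stood apart within their groups in several results below.

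All 73 genes were expressed and all passed the filter on low counts, the thinnest value being 134 reads in 1 library and the median of the genes' lowest values being 1002 reads. As RPKM, which divides CPM by the exon length, mean levels ranged from 17.5 to 139.5 with a median of 50.4, a 7.96-fold spread. *mRpL30* was highest at 139.5 RPKM, followed by *mRpL12* at 106.7 and *mRpL28* at 92.9. *mRpL12* is the protein of the flexible stalk that, in bacteria, recruits translation factors to the ribosome. At the other end, *mRpL21* lay at 17.5 RPKM, *mRpS24* at 27.01 and *mRpL11*, which forms the base of the stalk in bacteria, at 27.1. By library, *mRpL12* was at 73.9, 69.4 and 65.5 CPM at 0 hr, 95.2, 83.7 and 88.8 CPM at 9 hr, and 81.7, 72.6 and 73.6 CPM at 18 hr. *mRpL21* was at 24.7, 26.6 and 28.1 CPM at 0 hr, 37.9, 31.9 and 30.5 CPM at 9 hr, and 30.7, 27.8 and 25.96 CPM at 18 hr. The 9 hr libraries of both genes lay above all of 0 hr, yet neither passed the test described below. *mRpS24*, named as the counterpart of bacterial S3, was at 16.1, 14.3 and 15.7 CPM at 0 hr, 20.4, 19.0 and 16.0 CPM at 9 hr, and 14.9, 13.3 and 14.7 CPM at 18 hr. *mRpL11* was at 19.2, 18.0 and 19.3 CPM at 0 hr, 22.7, 21.8 and 20.6 CPM at 9 hr, and 20.9, 17.7 and 17.9 CPM at 18 hr. *mRpL11* was separate between 0 and 9 hr, and *mRpS24*, 55.3% of whose exonic bases lie opposite exons of *TBC1d7*, was not. Replicates agreed closely for most genes: the coefficient of variation at 0 hr had a median of 4.83% and ran from 0.521% to 49.9%, the last for *mRpL53*. The genes were spread over the major chromosome arms, with 12 on 2L, 12 on 2R, 17 on 3L, 21 on 3R and 11 on X.

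Mitochondrial ribosomal protein transcripts were modestly more abundant at 9 hr and close to their starting level at 18 hr. Summed over all 73 genes, the level was 3046, 3101 and 3223 CPM in the 0 hr libraries. It was 3649, 3279 and 3362 CPM at 9 hr, and 3327, 3117 and 3113 CPM at 18 hr. All 9 hr sums lay above all 0 hr sums, whereas the 18 hr and 0 hr sums overlapped. As mean ± SD, the sums were 3123 ± 91.0 CPM (n = 3) at 0 hr, 3485 ± 233 (n = 2) at 9 hr and 3185 ± 123 (n = 3) at 18 hr. The genes made up 0.305% to 0.322% of all CPM at 0 hr, 0.328% to 0.365% at 9 hr and 0.311% to 0.333% at 18 hr. In whole-brain RNA, fewer cells of a type and less RNA per cell cannot be told apart.

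**Figure D1:**
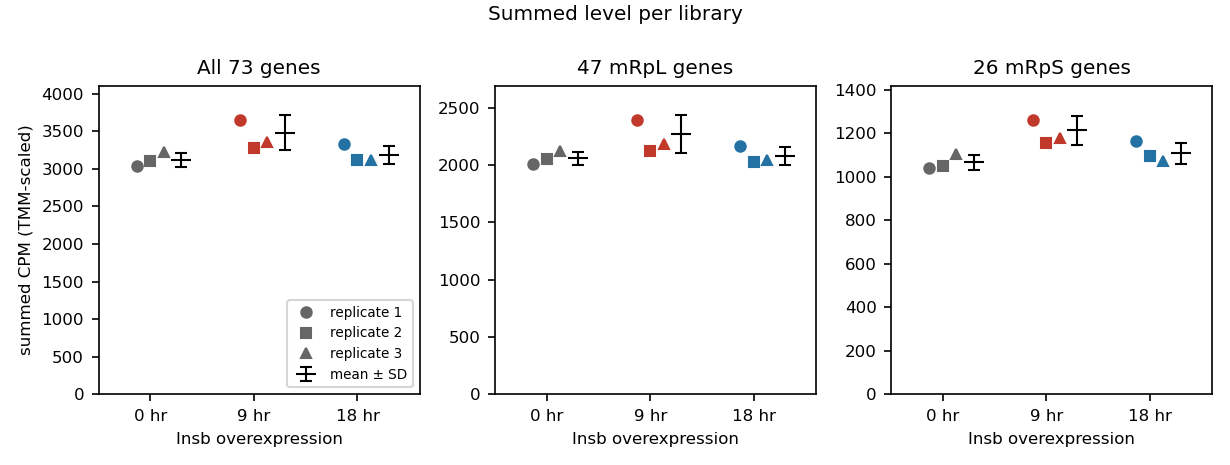
Summed CPM (linear axis from 0) of all 73 genes, the 47 mRpL genes and the 26 mRpS genes in each library, by hours of Insb overexpression. Coloured symbols are libraries and the black bars give mean ± SD, with replicates 2 and 3 at 9 hr averaged and counted once; the highest point in each panel is replicate 1 at 9 hr.

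At 9 hr against 0 hr, the fitted change was above 0 for 63 of 73 genes and below 0 for 10, against 50.6% and 49.4% of the 10985 genes tested. Its median was 0.19 on the log2 scale (a 1.14-fold level), with the middle of the distribution between 0.11 and 0.30, and the median of all genes tested was 0.005. Of the 73 genes, 7 rose and 0 fell at an adjusted p of 0.05 in edgeR's test, where 2.42% of all genes tested rose and 1.42% fell. None passed the additional 1.5-fold limit in either direction, which 1.22% of all genes did upwards and 0.61% downwards, 1.83% in all. At an unadjusted p of 0.05, 30 of the genes were higher and 1, *mRpL53*, was lower, against 12.7% and 10.7% of all genes. In 42 genes every 9 hr library lay above every 0 hr library, and in 2 (*mRpL28* and *mRpL44*) every one lay below, against 20.9% and 18.7% of all genes. The count of 7 changed with the libraries used, as did the share of all genes that rose. It was 0 without replicate 1, 2 or 3 at 0 hr, where 0.467%, 0.256% and 0.776% of all genes rose. It was also 0 without replicate 3 at 18 hr (0.55% of all genes), and 1 (*mRpL9*) without replicate 2 at 18 hr (1.66%). With DESeq2 the count was 20, where 6.73% of all genes rose. With replicates 2 and 3 at 9 hr kept as separate libraries it was 15, where 6.62% rose. The 7 genes were among those called in both of these fits.

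**Figure D2:**
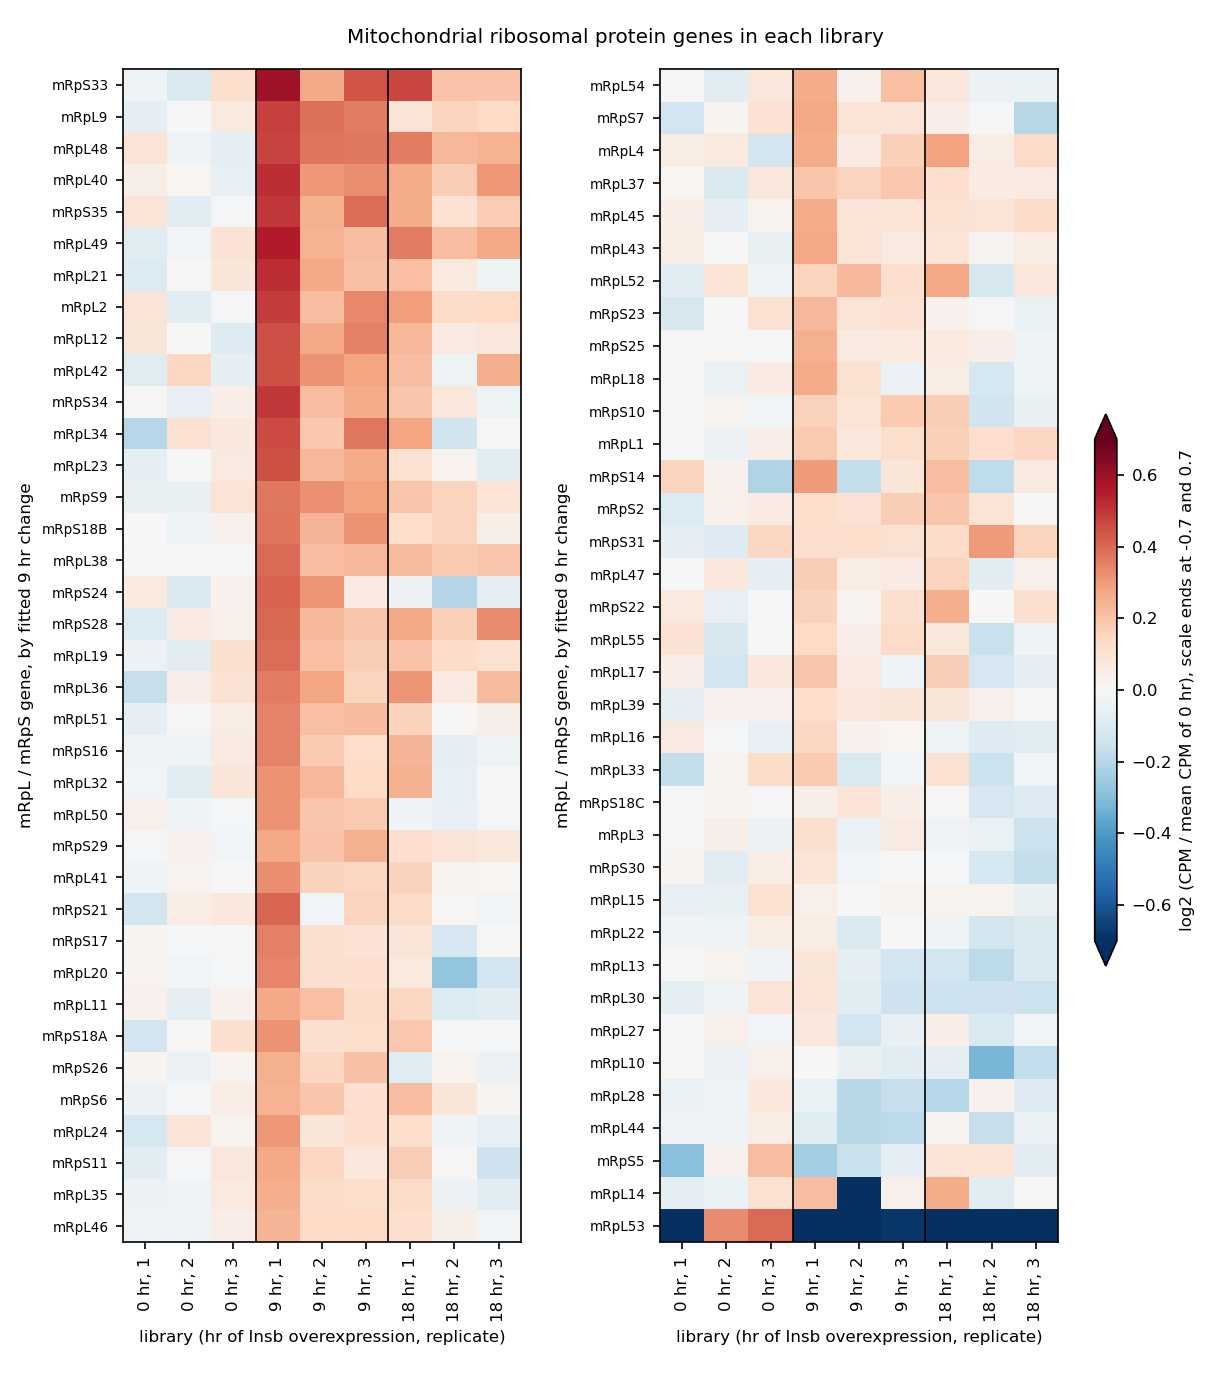
Each row is 1 of the 73 genes, ordered by its fitted change at 9 hr from the top left to the bottom right, and each column is 1 library. Colour gives log2 of CPM over the gene's 0 hr mean, red above and blue below, with the scale ended at -0.7 and 0.7; replicate 1 at 9 hr is the deepest red column, and *mRpL53* and *mRpL14* at the lower right stand apart from the rest.

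The size of the 9 hr difference varied between the libraries. The median over the 73 genes of log2 CPM relative to the 0 hr mean was 0.26 in replicate 1 at 9 hr, and 0.11 and 0.12 in replicates 2 and 3. Replicate 1 held the highest level of all 9 libraries for 58 of the 73 genes, and exceeded both other 9 hr replicates for 66. Without replicate 1 the fitted median fell from 0.19 to 0.10, and 58 of 73 genes were above 0. That fit held only 1 counted sample at 9 hr, so its calls are not given. At 18 hr, replicate 1 again lay above replicates 2 and 3 for 58 genes, with a median of 0.13 against 0.01 and -0.01. That library also carried the highest fat body sum, 805 CPM, and replicate 1 at 9 hr carried the lowest, 10.7 CPM. The part of fat body RNA in these levels was not tested.

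The genes named for each subunit had similar medians, the subunit being read from the name alone. The 47 mRpL genes had a median log2 fold change of 0.18 at 9 hr, with 4 that rose, and the 26 mRpS genes had a median of 0.21, with 3 that rose. By the number in the name, with some exceptions set by hand, 46 of the proteins were classed as having a bacterial counterpart and 27 as having none. The medians of these classes were 0.19 and 0.19, and 2 and 5 genes rose, where 2.42% of all genes did. Libraries did not overlap, with 9 hr higher, in 22 of the 46 and 20 of the 27, against 20.9% of all genes. Genes on the autosomal arms had medians from 0.17 (2L) to 0.24 (2R), and the 11 genes on X had a median of 0.06, where all X-linked genes tested had -0.01. No test was made between these classes.

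**Figure D3:**
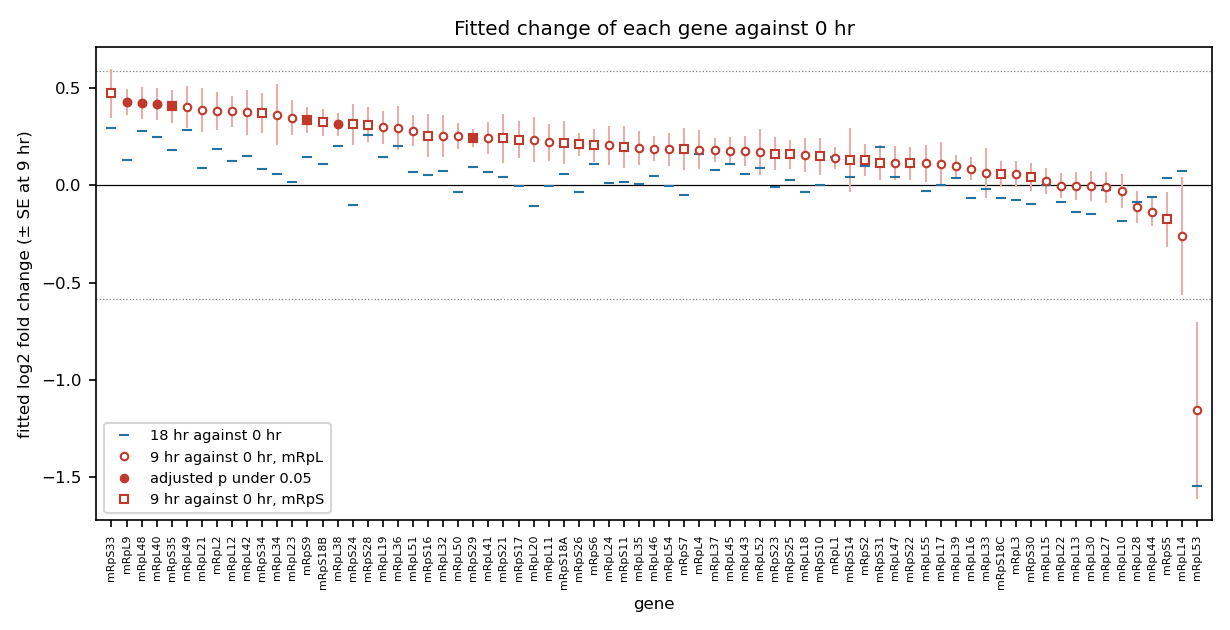
Fitted log2 fold change against 0 hr of each gene, ordered by the 9 hr value. Red circles (mRpL) and squares (mRpS) give 9 hr ± SE and are filled for the 7 genes with an adjusted p under 0.05, blue dashes give 18 hr, and the dotted lines mark 1.5-fold; the blue dash lies below the red symbol for 66 of the 73 genes.

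Among the large subunit genes, *mRpL9* (chr3R:15330738-15331588, dm6) encodes the counterpart of bacterial L9. Its level was 39.0, 41.0 and 42.9 CPM at 0 hr, 57.0, 53.6 and 52.7 CPM at 9 hr, and 43.6, 45.6 and 45.2 CPM at 18 hr. The 9 hr libraries stood above both other groups without overlap, and the 18 hr libraries lay just above those of 0 hr. *mRpL9* rose by 0.43 ± 0.07 at 9 hr (log2 fold change ± SE, edgeR adjusted p = 0.0245), whereas the 18 hr value was 0.13 ± 0.06 (adjusted p = 0.369).

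*mRpL48* (chr2L:1710462-1711465) and *mRpL40* (chr3R:11407918-11408756) encode large subunit proteins with no bacterial counterpart. *mRpL48* was at 23.4, 21.4 and 20.9 CPM at 0 hr, 30.4, 28.4 and 28.3 CPM at 9 hr, and 28.1, 25.7 and 25.9 CPM at 18 hr. *mRpL40* was at 27.3, 26.8 and 25.5 CPM at 0 hr, 37.9, 32.7 and 33.3 CPM at 9 hr, and 31.7, 29.9 and 32.7 CPM at 18 hr. For both genes the groups were ordered 0, 18 and 9 hr without any overlap. The 9 hr changes were 0.42 ± 0.08 for *mRpL48* (edgeR adjusted p = 0.0382) and 0.42 ± 0.08 for *mRpL40* (edgeR adjusted p = 0.0412), and the 18 hr values, 0.28 and 0.25, did not pass (adjusted p = 0.152 and 0.194). In *mRpL48*, 20.8% of the exonic bases also lie in exons on the opposite strand, including those of *frtz*. Whether the counting used strand is not given in the sources used here, so reads of such antisense pairs cannot be told apart.

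*mRpL38* (chrX:14226289-14227949) is another protein of the large subunit known only from mitochondria. It was at 80.0, 80.7 and 80.7 CPM at 0 hr, 106, 93.6 and 94.5 CPM at 9 hr, and 93.9, 91.3 and 92.0 CPM at 18 hr. The 0 hr libraries agreed within 1 CPM, and all libraries of the later times lay above them. It rose by 0.31 ± 0.06 at 9 hr (edgeR adjusted p = 0.0372), and at 18 hr stood at 0.20 ± 0.05 with an adjusted p of 0.157 (0.0389 with DESeq2).

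In the small subunit, *mRpS35* (chr3L:2780899-2782105) and *mRpS29* (chr2R:22418937-22420376) are specific to mitochondria, and the human protein of the latter, DAP3, binds GTP. *mRpS35* was at 53.2, 47.3 and 49.5 CPM at 0 hr, 70.5, 59.5 and 65.7 CPM at 9 hr, and 59.8, 53.8 and 56.5 CPM at 18 hr. *mRpS29* was at 72.9, 74.8 and 72.5 CPM at 0 hr, 88.3, 84.3 and 87.1 CPM at 9 hr, and 79.6, 78.2 and 77.7 CPM at 18 hr. The *mRpS29* groups were again separate in the order 0, 18 and 9 hr, and those of *mRpS35* were separate except that 18 and 9 hr touched. The rise at 9 hr was 0.41 ± 0.08 for *mRpS35* (edgeR adjusted p = 0.0476). For *mRpS29* it was 0.24 ± 0.05 (edgeR adjusted p = 0.0361), the smallest of the 7 changes.

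*mRpS9* (chr3R:7889277-7902667) encodes the counterpart of bacterial S9, whose tail reaches the tRNA in the decoding region of the bacterial ribosome. It was at 52.3, 52.3 and 57.9 CPM at 0 hr, 69.8, 67.6 and 65.9 CPM at 9 hr, and 61.8, 60.3 and 57.8 CPM at 18 hr. The 9 hr libraries lay above all others, and the 18 hr and 0 hr libraries overlapped. *mRpS9* rose by 0.34 ± 0.07 at 9 hr (edgeR adjusted p = 0.0446). On the opposite strand, exons of *ArgRS-m*, the mitochondrial arginyl-tRNA synthetase, cover 25.1% of its exonic bases.

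The largest fitted 9 hr value belonged to a gene that did not pass edgeR's test. *mRpS33* (chr3R:16436045-16436597), specific to mitochondria, was at 14.8, 14.1 and 16.4 CPM at 0 hr, 22.8, 18.2 and 20.5 CPM at 9 hr, and 20.9, 17.3 and 17.4 CPM at 18 hr. All later libraries were above the 0 hr libraries, and replicate 1 was the highest at both later times. The values were 0.47 ± 0.13 at 9 hr (edgeR adjusted p = 0.0849, though 0.0241 with DESeq2 and 0.0451 with replicates 2 and 3 at 9 hr kept separate) and 0.30 ± 0.12 at 18 hr (edgeR adjusted p = 0.291).

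At 18 hr against 0 hr, 0 of the 73 genes rose and 0 fell in edgeR's test, where 0.391% and 0.273% of all genes did. At an unadjusted p of 0.05, 11 were higher and 2 (*mRpL53* and *mRpL10*) lower, against 8.46% and 7.05% of all genes. DESeq2 called 1 higher (*mRpL38*) and 1 lower (*mRpL53*), where it called 2.7% of all genes higher and 2.89% lower. The median change was 0.04, with 48 of 73 above 0, against a median of 0.01 and 52.7% above 0 for all genes. Without replicate 1 at 18 hr the median was -0.01. The 18 hr libraries were all above those of 0 hr in 13 genes and all below in 4, against 11.3% and 9.41% of all genes. This comparison shares the 0 hr libraries with that of 9 hr.

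The highest 18 hr values after *mRpS33* were those of *mRpL49*, *mRpL48*, *mRpS28* and *mRpL40*. *mRpL49*, specific to mitochondria, was at 38.7, 40.4 and 44.0 CPM at 0 hr, 60.2, 48.5 and 47.6 CPM at 9 hr, and 52.7, 47.7 and 49.3 CPM at 18 hr. *mRpS28*, named as the counterpart of bacterial S1 in the human ribosome, was at 32.9, 36.7 and 36.02 CPM at 0 hr, 46.6, 41.2 and 40.3 CPM at 9 hr, and 42.5, 39.6 and 44.2 CPM at 18 hr. In both genes the later times overlapped each other and lay above 0 hr. Their 18 hr values of 0.28 ± 0.10 and 0.26 ± 0.08 did not pass (edgeR adjusted p = 0.238 and 0.202).

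The genes with the lowest 18 hr values, apart from *mRpL53*, differed from 0 hr by little. *mRpL10* encodes the stalk protein that holds the copies of L12 in the bacterial ribosome, and was at 26.3, 25.4 and 26.8 CPM at 0 hr, 26.2, 25.2 and 24.7 CPM at 9 hr, and 24.9, 20.9 and 23.2 CPM at 18 hr. *mRpL30*, the most abundant of the 73 per length, was at 95.8, 98.2 and 108 CPM at 0 hr, 107, 95.2 and 90.9 CPM at 9 hr, and 90.5, 91.0 and 90.4 CPM at 18 hr. The 18 hr libraries of both were below those of 0 hr without overlap, by 0.18 ± 0.08 and 0.15 ± 0.07 on the log2 scale, but neither passed (edgeR adjusted p = 0.322 and 0.357). *mRpL13*, whose bacterial counterpart joins the large subunit early in assembly, was at 38.0, 38.6 and 37.3 CPM at 0 hr, 40.2, 36.3 and 34.6 CPM at 9 hr, and 34.6, 33.5 and 35.4 CPM at 18 hr. *mRpL20*, also an early assembly protein in bacteria, was at 26.4, 25.7 and 25.8 CPM at 0 hr, 33.0, 28.1 and 28.2 CPM at 9 hr, and 27.3, 21.4 and 23.7 CPM at 18 hr. Only the *mRpL13* libraries of these 2 were separate between 0 and 18 hr, and the edgeR adjusted p was 0.371 for *mRpL13* and 0.713 for *mRpL20*.

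From 9 to 18 hr the levels went down on balance, though no single gene passed. The fitted change from 9 to 18 hr was below 0 for 66 of 73 genes, with a median of -0.15, where all genes tested had a median of 0.009, with 48% below 0 and 52% above. In edgeR's test 0 genes rose and 0 fell, as against 0 and 1 (0.0091%) of all genes tested. At an unadjusted p of 0.05, 17 were lower and 0 higher, against 4.42% and 3.28% of all genes. DESeq2 called 3 lower (*mRpL9*, *mRpL50* and *mRpS26*) and 0 higher, where it called 0.537% of all genes lower and 0.519% higher. The 18 hr libraries were all below those of 9 hr in 22 genes and all above in 1 (*mRpS31*), against 10.5% and 7.89% of all genes. The median was -0.09 without replicate 1 at 9 hr and -0.19 without replicate 1 at 18 hr.

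**Figure D4:**
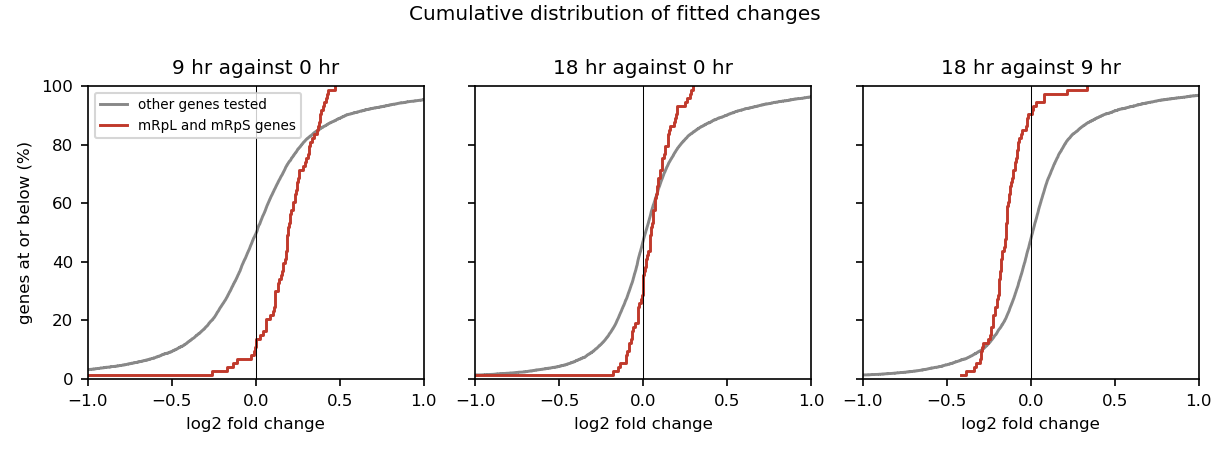
Share of genes (%) at or below each fitted log2 fold change, for the 73 genes (red) and the other genes tested (grey), in the 3 comparisons. The axis runs from -1 to 1, so a few genes lie outside it, *mRpL53* among them; the red curve is shifted to the right at 9 hr against 0 hr, lies near the grey one at 18 hr against 0 hr, and is shifted to the left at 18 hr against 9 hr.

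The lowest 9 hr values came from *mRpL53*, *mRpL14*, *mRpS5*, *mRpL44* and *mRpL28*. Replicates of *mRpL53*, and 1 library of *mRpL14*, differed from the others in the opposite direction to an overlapping or neighbouring gene. *mRpL53* (chr2R:13954195-13955664) overlaps exons of *CG33155*, a gene of the same strand, and of *AGO1* on the opposite strand. Between them these genes cover all of its exonic bases, and the part covered by *CG33155* alone was not measured. *mRpL53* was at 22.3, 66.0 and 68.9 CPM at 0 hr, 25.9, 12.8 and 32.7 CPM at 9 hr, and 18.6, 20.8 and 14.4 CPM at 18 hr. *CG33155* was at 52.5, 16.0 and 18.6 CPM at 0 hr, 88.9, 88.8 and 70.8 CPM at 9 hr, and 72.7, 63.2 and 71.8 CPM at 18 hr. *mRpL53* was above *CG33155* in replicates 2 and 3 at 0 hr and below it in the other 7 libraries, so the 0 hr replicates themselves were split. For *mRpL53* alone the fitted changes were -1.16 ± 0.45 at 9 hr and -1.54 ± 0.40 at 18 hr, which did not pass (edgeR adjusted p = 0.183 and 0.147), although without replicate 1 at 0 hr both did (-1.52 with adjusted p = 0.0383, and -1.91 with adjusted p = 0.0327).

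Added together, the pair was steadier. The sum of *mRpL53* and *CG33155* was 74.7, 82.0 and 87.5 CPM at 0 hr, 114.8, 101.6 and 103.5 CPM at 9 hr, and 91.4, 84.1 and 86.2 CPM at 18 hr. The direction thus turned: the sum was higher at 9 hr in every library, by 0.42 ± 0.08 (edgeR adjusted p = 0.0442), and at 18 hr the difference was 0.10 ± 0.08 (edgeR adjusted p = 0.609). This sum was formed after the values of *mRpL53* had been seen. The share of it that belongs to the ribosomal protein cannot be told apart from that of *CG33155* in these counts.

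*mRpL14* (chrX:2343997-2344649) encodes the counterpart of bacterial L14, which lies at the interface of the subunits. It was at 24.4, 24.7 and 27.5 CPM at 0 hr, 29.7, 3.63 and 26.2 CPM at 9 hr, and 30.6, 24.3 and 25.7 CPM at 18 hr. A single library, replicate 2 at 9 hr with 134 reads, was far below all others, although it was nearly identical to replicate 3 (700 reads) over the genome. The neighbour *ptr* (CG2841 in the current annotation), on the same strand, had 2728 reads in replicate 2 and 1412 in replicate 3, so that *mRpL14* was 22.6 CPM lower and *ptr* 21.1 CPM higher in replicate 2. Their sums, 77.6 and 79.0 CPM, were alike. The fitted change of *mRpL14* at 9 hr was -0.26 ± 0.30 (edgeR adjusted p = 0.651), and 0.13 without replicate 2. That of the sum with *ptr* was -0.35 ± 0.13 (edgeR adjusted p = 0.169).

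**Figure D5:**
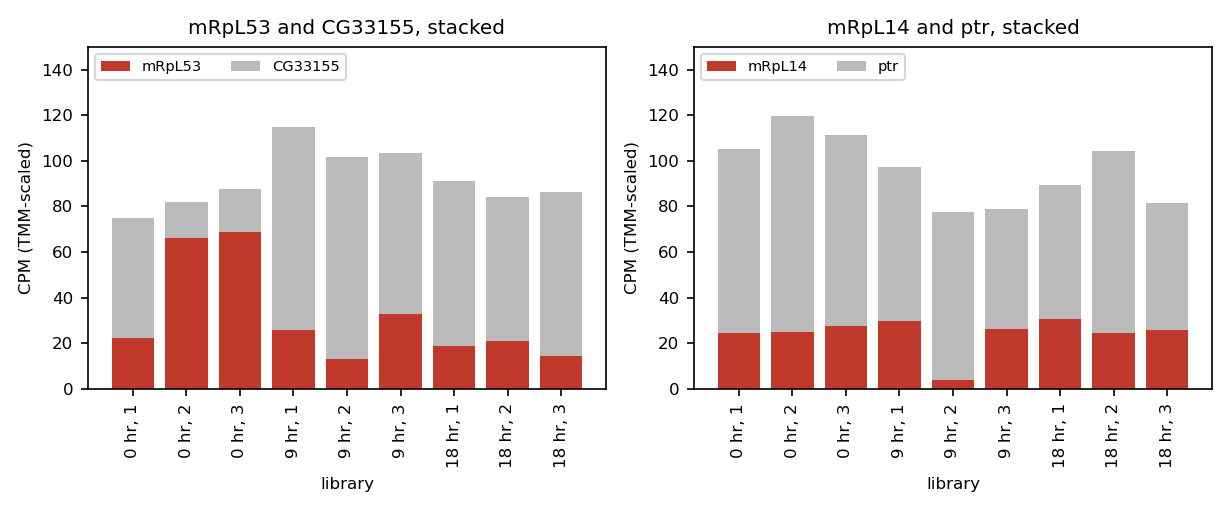
Stacked CPM (linear axis from 0) of *mRpL53* with *CG33155* and of *mRpL14* with *ptr* in the 9 libraries, labelled by hours and replicate. The red part (the ribosomal protein gene) varies more between replicates than the height of the stack, for *mRpL53* at 0 hr and for *mRpL14* in replicate 2 at 9 hr.

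The other 3 genes at the low end share no exon with a gene of the same strand. *mRpS5*, whose bacterial counterpart lies where mRNA enters the ribosome, was at 58.9, 73.6 and 83.7 CPM at 0 hr, 61.1, 64.8 and 69.0 CPM at 9 hr, and 76.8, 77.0 and 68.5 CPM at 18 hr. *mRpL44*, which carries a fold related to RNase III, was at 66.9, 66.7 and 70.6 CPM at 0 hr, 64.1, 59.4 and 60.0 CPM at 9 hr, and 69.0, 60.9 and 65.8 CPM at 18 hr. *mRpL28* was at 110.1, 111 and 120 CPM at 0 hr, 110.0, 99.2 and 102 CPM at 9 hr, and 99.01, 116 and 107 CPM at 18 hr. The 9 hr libraries of *mRpL44* and *mRpL28* lay just below those of 0 hr, and the *mRpS5* libraries overlapped. Their 9 hr values were -0.17, -0.14 and -0.11, and none passed (edgeR adjusted p = 0.505, 0.301 and 0.470).

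Exon sharing was common among the 73 genes. In Ensembl's annotation on dm6 coordinates, 43 overlap exons of another gene, 3 of them on the same strand (*mRpL53*, *mRpL13* and *mRpS14*) and 40 on the opposite strand only. The 43 genes had a median 9 hr change of 0.18, with 4 that rose, and the 30 genes without overlap had a median of 0.19, with 3 that rose. Of all genes tested, 2.42% rose. The part of shared reads in the 9 hr values was not tested.

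Other genes of mitochondrial translation were compared with the ribosomal proteins, from lists by name. Of the 9 mitochondrial translation factors tested, 1 rose and 0 fell at 9 hr, with a median of 0.33, where 2.42% and 1.42% of all genes rose and fell. The gene that rose was *mEFTu1* (listed as EfTuM), the factor that brings aminoacyl-tRNA to the mitochondrial ribosome, at 177, 159 and 162 CPM at 0 hr, 258, 235 and 238 CPM at 9 hr, and 221, 196 and 198 CPM at 18 hr (log2 fold change 0.57 ± 0.08 at 9 hr, edgeR adjusted p = 0.0194). Of 16 mitochondrial tRNA synthetases, 2 rose and 0 fell, with a median of 0.25: *IleRS-m* (listed as CG5414; 0.47, edgeR adjusted p = 0.0328) and *TrpRS-m* (CG7441; 0.35, edgeR adjusted p = 0.0466). At 18 hr, 0 genes of either list passed in edgeR's test, with medians of 0.15 and 0.12. At an unadjusted p of 0.05, 1 factor was higher and 1 lower, and 5 synthetases were higher and 0 lower, against 8.46% and 7.05% of all genes.

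The 3 mitochondrial ribosomal protein genes that carry other names had fitted values of both signs. *bonsai*, the counterpart of bacterial S15, was at 54.5, 55.9 and 59.1 CPM at 0 hr, 76.1, 68.8 and 66.5 CPM at 9 hr, and 66.0, 59.8 and 58.0 CPM at 18 hr, a 9 hr value of 0.35 (edgeR adjusted p = 0.0619). *tko*, the counterpart of S12, gave -0.19 (edgeR adjusted p = 0.458), and *CRIF* (CG7172) gave -0.02 (edgeR adjusted p = 0.935).

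Of 9 mitochondrial chaperones and proteases, 3 rose at 9 hr: *Hsp10* (listed as CG11267), *Hsp60* and, named after its values were seen, *Hsc70-5*. *Hsp10* and *Hsp60* form the folding chamber of the mitochondrial matrix, and *Hsc70-5* pulls imported proteins into it. *Hsp10* was at 195, 195 and 198 CPM at 0 hr, 369, 333 and 338 CPM at 9 hr, and 275, 259 and 254 CPM at 18 hr. It rose by 0.84 ± 0.06 at 9 hr (edgeR adjusted p = 0.00471) and by 0.42 ± 0.06 at 18 hr (edgeR adjusted p = 0.0340). The changes of *Hsp60* and *Hsc70-5* at 9 hr were 0.42 and 0.41 (edgeR adjusted p = 0.0306 and 0.0440). Mitochondrial chaperones can also respond to heat. Of 17 genes of the general heat response 1 rose at 9 hr, *Hsp23* (1.10, edgeR adjusted p = 0.0387), and 0 fell, where 2.42% and 1.42% of all genes did. Replicate 3 at 0 hr stood apart in this list, which summed to 5472, 6470 and 12753 CPM at 0 hr, 7509, 8984 and 9167 CPM at 9 hr, and 5233, 10430 and 6265 CPM at 18 hr. *Hsp70Ba*, for example, was at 15.98, 24.98 and 450.6 CPM at 0 hr. At 9 hr it was at 73.55, 167 and 177.9 CPM, above replicates 1 and 2 of 0 hr but below replicate 3. At 18 hr it was at 26.36, 333.7 and 40.56 CPM, with replicate 2 apart from the others. The list's fitted median at 9 hr, -0.31, therefore includes replicate 3 at 0 hr.

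Beyond translation, the nuclear-encoded subunits of oxidative phosphorylation, in which the products of the mitochondrial ribosome are assembled, had a median of 0.18 at 9 hr over 68 tested genes. Of these 3 rose and 1 fell, where 2.42% and 1.42% of all genes did. *ND-B17* (listed as l(2)35Di) and *ND-AGGG* (listed as CG40002), both of complex I, had the largest changes in each direction among those that passed, 0.72 and -0.67 (edgeR adjusted p = 0.0476 and 0.0471). The largest fitted value of the list, 1.24 for *COX7CL* (listed as CG44296), was that of a gene below 1 CPM in mean level at both times and did not pass (edgeR adjusted p = 0.501). Libraries at 9 hr lay above all 0 hr libraries in 36 of the 68 and below in 4, against 20.9% and 18.7% of all genes. The mitochondrial ribosomal transcripts equalled 33.7% to 37.5% of the summed oxidative phosphorylation transcripts at 0 hr, 35.2% to 35.9% at 9 hr and 32.6% to 37.3% at 18 hr, so the ratio overlapped between all times. The 87 cytosolic ribosomal protein genes tested had a smaller median at 9 hr, 0.08, and 0.08 at 18 hr. Of these, 4 and 1 rose (4.6% and 1.15%), where 2.42% and 0.391% of all genes did. The 11 genes of mitochondrial DNA maintenance and transcription had a median of 0.03 at 9 hr, and in edgeR's test 0 of them passed (2 higher and 1 lower at an unadjusted p of 0.05, against 12.7% and 10.7% of all genes).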

How the data were processed

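The authors sequenced poly-A RNA as paired reads, aligned them to dm6 with HISAT2 2.1.0, quantified genes with StringTie 1.3.4, tested with DESeq2 1.20.0 and checked reads with FastQC 0.11.3, per the labels and the study's methods. The deposited values used are raw gene counts of 9 libraries. The annotation and the use of strand are not given in the sources used here.

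Counts were fitted with edgeR 4.0.16 (R 4.3.3; quasi-likelihood test, TMM scaling, filterByExpr with a minimum of 10) over all 3 groups, with replicates 2 and 3 at 9 hr summed, so 8 libraries entered. Of 14560 genes, 10985 were tested, with Benjamini-Hochberg adjustment over all of them. Calls needed an adjusted p of 0.05, and separately a 1.5-fold change. CPM used TMM-scaled totals of the 9 libraries, and RPKM divided these by the exon length in Ensembl's annotation. Libraries were compared for overlap with all 9 kept apart. Names were matched to current ones (11086 directly, 3319 as older names, 155 unmatched). The classes by bacterial counterpart and all lists were set by hand from gene names. The edgeR fit was tested on simulated counts at 9 hr against 0 hr. It called 74.5% of 200 genes changed 2- or 4-fold, with 6 false calls. Of 200 genes changed 1.25-fold it called 1. DESeq2 1.42.0 and other scalings, filters and sample sets were tried as alternatives.

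By rule, values in every library are given for genes past 1.5-fold (none), the 5 largest fitted changes in each direction at 9 and 18 hr, and the 3 highest and 3 lowest mean RPKM. Other lists have at most 2 genes named by largest change among those that passed. *mRpL38*, *mRpS29*, *mRpS9*, the partner genes, *Hsc70-5*, *Hsp70Ba*, *COX7CL*, *Myc* and the genes named for a count of 5 or fewer were added after their values were seen. Members and lists were chosen with earlier results of these data known. No sequences are printed.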

Additional observations from a re-analysis of the deposited data

How the results depend on the processing

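The median shift at 9 hr kept its direction in every setting tried, while the number of genes that rose did not. Without replicate 1 at 9 hr only 1 counted sample remained at that time, so calls of that fit are not given. At 9 hr against 0 hr, leaving out 1 of the other replicates at a time gave 0 to 10 genes higher and 0 to 1 lower. Over all genes, 0.256% to 3.53% rose and 0.137% to 2.73% fell in these fits. Of the 73 genes, 0 to 1 were past 1.5-fold (*mRpL53*, without replicate 1 at 0 hr). Medians were 0.10 to 0.23, the lowest without replicate 1 at 9 hr. The number higher, 7 as reported, was 15 with replicates 2 and 3 kept separate, 20 with DESeq2 (with 1 lower and 1 past 1.5-fold, *mRpL53*), and 1 (*mRpL9*) with no filter or with the compared groups alone. The numbers over all genes moved with it: 266 rose and 156 fell as reported, 739 and 759 with DESeq2, 715 and 564 with the replicates separate. As shares of all genes, 2.42% rose as reported, 1.3% with no filter and 1.69% with the compared groups alone. Replicate numbers did not pair the samples (correlations of same-numbered deviations from -0.263 to 0.368). A fit with the replicate number as a block gave 11 higher, where 4.44% of all genes rose. Other scalings gave 8 each, where 2.41% to 3.47% of all genes rose.

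At 18 hr against 0 hr, DESeq2 called 1 lower, 1 higher and 1 past 1.5-fold, where it called 2.89% of all genes lower and 2.7% higher. Leaving out 1 replicate gave 0 to 1 lower, where 0.0183% to 0.367% of all genes were lower, and 0 to 1 past 1.5-fold. Medians ran from -0.0138 (without replicate 1 at 18 hr, a reversal) to 0.0751. At 18 hr against 9 hr, DESeq2 called 3 lower, where 0.537% of all genes were lower, and medians ran from -0.19 to -0.09. Summing each gene with its partner, chosen after seeing the data, reversed *mRpL53* to 0.42 at 9 hr and 0.10 at 18 hr. The sum of *mRpL14* and *ptr* gave -0.35 at 9 hr and -0.285 at 18 hr, where *mRpL14* alone gave -0.26 and 0.07. *mRpL13* with *CG10602* gave -0.11 and -0.06, and *mRpS14* with *CG32533* gave 0.13 and 0.18. Leaving out 1 replicate moved *mRpL14* at 9 hr from -0.98 to 0.13, the reversal being without replicate 2 at 9 hr. The causes were not tested.

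Changes of this size are near the limit of the design, with n of 3, 2 and 3. The biological coefficient of variation was 0.265 over all genes. Standard errors of the 73 genes at 9 hr had a median of 0.09 and ran from 0.05 to 0.45, the highest for *mRpL53*. A gene that missed the threshold is not shown to be unchanged.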

Other observations

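Genes for making cytosolic ribosomes in the nucleolus, together with *Myc* (listed as dm), were set beside the mitochondrial ribosomal proteins as a list of 13. Their median log2 fold change was -0.01 at 9 hr and -0.12 at 18 hr against 0 hr, with 12 of 13 below 0 at 18 hr, against 47.3% of all genes. In edgeR's test 0 passed at either time. At an unadjusted p of 0.05, 2 were higher and 1 lower at 9 hr (12.7% and 10.7% of all genes), and 0 were higher and 5 lower at 18 hr (8.46% and 7.05% of all genes). Between 9 and 18 hr all 13 fitted values were below 0, against 48% of all genes, with a median of -0.15. The 18 hr libraries were all below those of 9 hr in 10 genes and all above in 0, against 10.5% and 7.89% of all genes. No test was made against the mitochondrial list. The summed level was 3670, 3531 and 3992 CPM at 0 hr, 3695, 3695 and 3705 CPM at 9 hr, and 3156, 3536 and 3303 CPM at 18 hr, so the 0 and 18 hr libraries overlapped.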
